A study of Mus musculus with 8 samples.

Results

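The Zscan4 cluster of the mouse is a group of near-identical genes and pseudogene copies on chromosome 7 that encode, where intact, a protein with a SCAN domain and zinc fingers. The members were taken as the rows of the gene tables whose identifiers map to Zscan4a, Zscan4b, Zscan4c, Zscan4d, Zscan4e, Zscan4f, Zscan4-ps1, Zscan4-ps2 and Zscan4-ps3. All 9 were present in both tables, among 17938 genes measured in the knockdown arm and 18292 in the overexpression arm. RNA came from J1 cells, a male mouse embryonic stem (ES) cell line (strain given as 12910la), in 4 groups of 2 libraries. KD Zscan4 cells carried pSuper puro expressing an shRNA, a short hairpin that directs destruction of Zscan4 RNA, and KD control cells were the random control of the same arm. OE Zscan4 cells had received pCMV-tag2, a plasmid with a CMV promoter, holding the coding sequence of Zscan4c, and OE control cells were that arm's control. Both control groups are labelled wild type in genotype, and what their plasmids held is not described further. All groups shared transfection with 1000 ng of plasmid, medium with 15% serum and 10 ng/ml of the cytokine LIF, and drug selection from 24 h on. Knockdown arm cells were selected for 7 days with 2 µg/ml puromycin, and overexpression arm cells for 10 days with 500 µg/ml G418, after which single clones were picked. Nothing in the labels tells whether both libraries of a group stem from different clones or cultures. The spread behind each p-value is that of these libraries alone and may be technical.

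Zscan4 genes are transcribed in the late 2-cell embryo and, in ES cell cultures, in a small and changing part of the cells at any one time. The protein is known for a role in telomere lengthening and genome stability of ES cells. Its genes are activated by the homeodomain factor Dux together with other genes of the 2-cell embryo, and are silenced by chromatin repressors in most ES cells.

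The cluster spans chr7:10794242-11614112 of GRCm38 (mm10), 819.871 kb, with 4 exons in each member according to GENCODE vM21. In chromosome order the members are Zscan4a, Zscan4b, Zscan4c, Zscan4-ps1, Zscan4d, Zscan4e, Zscan4f, Zscan4-ps2 and Zscan4-ps3. Zscan4c (ENSMUSG00000054272), the copy whose coding sequence was overexpressed, lies at chr7:11005745-11010547 on the plus strand. GENCODE calls Zscan4a an unprocessed pseudogene and gives the others an open coding sequence of 1515 bases (Zscan4b and Zscan4e) or 1518 bases (the other 6). RefSeq calls Zscan4e and the 3 members named ps pseudogenes, and Zscan4a a transcribed pseudogene. The 36 pairs of transcripts were 96.6 to 99.8% identical, with a median of 97.4%. The closest pairs were Zscan4f with Zscan4-ps2 (99.8%), Zscan4b with Zscan4e (99.7%) and Zscan4c with Zscan4f (99.5%). Positions with a gap in either transcript were left out. Zscan4f and Zscan4-ps2 were thus compared over 1806 bases, while the Zscan4-ps2 transcript has 2277.

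A read must hold a base that differs between members in order to be placed. The share of 150-base windows of a transcript that occur in no other member was 13.8% for Zscan4f, 22.6% for Zscan4e, 31.6% for Zscan4b, 36.4% for Zscan4-ps2 and 39.0% for Zscan4c. It was 63.6% for Zscan4-ps3, 74.9% for Zscan4a, 87.0% for Zscan4d and 87.4% for Zscan4-ps1. With windows of 50 bases the share was lower for every member, from 4.66% for Zscan4f to 51.6% for Zscan4-ps1. How reads that fit several members were counted, and whether strand was used, is not given in the sources used here. Values of single members are therefore uncertain, and Zscan4c, Zscan4f and Zscan4-ps2 are hardest to tell apart, as are Zscan4b and Zscan4e. The 60 bases at coding positions 713 to 772 show examples of such differences. They were chosen as the stretch of that length with most distinct versions among the 8 members with a coding sequence. They are thus not typical of the whole transcripts. They hold 12 variable positions and 6 versions, and capitals mark bases that differ from Zscan4c.
Zscan4c and Zscan4f: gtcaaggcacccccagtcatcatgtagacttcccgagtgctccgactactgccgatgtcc
Zscan4-ps2: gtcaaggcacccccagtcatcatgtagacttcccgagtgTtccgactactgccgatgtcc
Zscan4-ps3: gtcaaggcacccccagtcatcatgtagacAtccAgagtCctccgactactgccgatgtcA
Zscan4b and Zscan4e: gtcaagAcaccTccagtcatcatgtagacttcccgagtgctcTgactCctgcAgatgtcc
Zscan4d: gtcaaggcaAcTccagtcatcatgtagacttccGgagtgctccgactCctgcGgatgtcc
Zscan4-ps1: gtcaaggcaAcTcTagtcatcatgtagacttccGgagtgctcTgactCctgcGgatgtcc
Zscan4-ps2 differs from Zscan4c at 1 of these positions, Zscan4-ps3 at 4, Zscan4b, Zscan4d and Zscan4e at 5 each, and Zscan4-ps1 at 7.

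Start site windows of 4 members were found in the RefSeq promoter set of GRCm38.p6, each with 250 bases before the annotated start and 50 after it. The windows were 95.3 to 99.3% identical over their 6 pairs. Whether these sequences play a part in the changes of the members was not tested. Printed are the 250 bases before the start, at chr7:10905051-10905300 (minus strand) for Zscan4b, chr7:11005495-11005744 (plus) for Zscan4c, chr7:11166149-11166398 (minus) for Zscan4d and chr7:11397665-11397914 (plus) for Zscan4f. Capitals mark GATTCAAT, letters within the known Dux motif, and TATAAA, the TATA box.
Zscan4b: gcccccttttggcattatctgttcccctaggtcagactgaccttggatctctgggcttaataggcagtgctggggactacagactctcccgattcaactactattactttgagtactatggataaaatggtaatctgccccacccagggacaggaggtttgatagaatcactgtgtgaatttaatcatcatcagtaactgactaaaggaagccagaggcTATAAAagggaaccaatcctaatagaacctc
Zscan4c: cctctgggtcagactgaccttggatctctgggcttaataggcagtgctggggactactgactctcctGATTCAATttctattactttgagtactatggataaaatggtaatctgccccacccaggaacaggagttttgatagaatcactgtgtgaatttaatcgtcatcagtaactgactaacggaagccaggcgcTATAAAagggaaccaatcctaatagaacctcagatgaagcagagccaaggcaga
Zscan4d: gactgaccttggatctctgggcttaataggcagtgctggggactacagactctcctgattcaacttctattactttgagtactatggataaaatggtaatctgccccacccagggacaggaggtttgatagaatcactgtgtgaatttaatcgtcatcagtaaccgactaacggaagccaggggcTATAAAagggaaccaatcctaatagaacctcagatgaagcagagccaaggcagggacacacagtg
Zscan4f: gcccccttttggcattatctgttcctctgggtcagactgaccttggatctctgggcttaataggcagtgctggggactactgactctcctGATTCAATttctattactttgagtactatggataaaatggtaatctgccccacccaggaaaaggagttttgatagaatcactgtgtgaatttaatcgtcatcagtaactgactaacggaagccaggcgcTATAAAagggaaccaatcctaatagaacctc
TATAAA was found in all 4 windows and in 13.6% of 32851 promoters of the same 300-base length, searched on both strands. GATTCAAT was found in the windows of Zscan4c and Zscan4f, and in 0.496% of promoters. TGCACAC, letters of the known Zscan4 motif, was in none of the 4 windows and in 4.396% of promoters. The motifs found did not overlap in these windows. A match is a description of letters and not a site.

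Libraries held 17392177 to 22381633 reads in genes. Defining ES cell markers were high in every library, with a summed normalised value of 126389 to 167802 for 10 genes and none at 0. The 7 primitive endoderm markers, which include Gata6 and Sox17, summed to 1986 to 2199 in KD control and 216 to 252 in KD Zscan4, where 7 of 7 fell by limma and Foxa2 was at 0 in 1 library. In the overexpression arm 6 of them were measured, and they summed to 386 to 393 in OE control and 244 to 260 in OE Zscan4, where 4 of 6 fell. The 4 neural markers summed to 4254 to 4282 in KD control and 5565 to 5795 in KD Zscan4, where Tubb3 rose and the other 3 fell. They summed to 2717 to 2888 in OE control and 5266 to 5398 in OE Zscan4, where 3 of 4 rose and Nes fell. Fibroblast markers summed to 211 to 217 in KD control and 293 to 295 in KD Zscan4, where 1 of 5 rose. They summed to 518 to 547 in OE control and 271 to 272 in OE Zscan4, where 2 of 4 fell. The part of these marker changes in the Zscan4 results was not tested. In bulk RNA, fewer cells that express Zscan4 and less Zscan4 RNA in each cell cannot be told apart.

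Zscan4 RNA was abundant in KD control and OE Zscan4 and scarce in KD Zscan4 and OE control. Summed over the 9 members, the normalised value was 3752 and 3336 in the KD control libraries and 97.4 and 136 in the KD Zscan4 libraries. It was 360 and 389 in the OE control libraries and 5878 and 5311 in the OE Zscan4 libraries. The group means were 3544 ± 294 and 117 ± 27.2 in the knockdown arm, and 375 ± 20.4 and 5595 ± 401 in the overexpression arm (SD, n = 2). Family signal in KD Zscan4 was thus 3.29% of KD control, or 30.4-fold lower, and family signal in OE Zscan4 was 14.9-fold that of OE control.

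Control levels differed between the arms. Scaled to reads in genes alone (rpm), the family stood at 182 ± 15.4 in KD control and 19.8 ± 1.71 in OE control (SD, n = 2), a 9.17-fold gap between control groups. OE Zscan4 stood at 268 ± 22.0 rpm, 1.48-fold KD control, and KD Zscan4 at 5.96 ± 1.49 rpm. The tables were normalised separately and the arms differ in vector and drug, so these levels were set side by side without a test. Among the 8 libraries, the 2 OE control libraries lay between the KD Zscan4 and the KD control libraries. The reads behind the sums were 4189 and 2970 in KD control, 96 and 140 in KD Zscan4, 378 in each OE control library, and 5529 and 5653 in OE Zscan4.

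**Figure D1:**
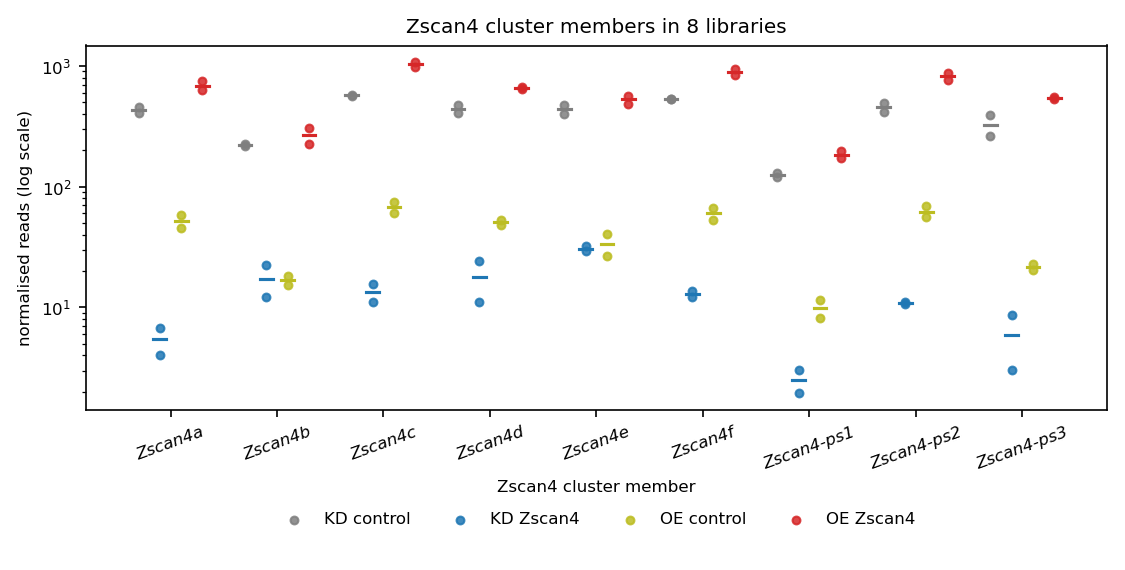
Normalised reads (log axis) of the 9 members in the 8 libraries, one point per library and a bar at each group mean, coloured by group. Each member is high in KD control (119 to 575) and OE Zscan4 (173 to 1074) and low in KD Zscan4 (1.94 to 32.0) and OE control (8.24 to 75.2).

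In the knockdown, all 9 members fell (limma, adjusted p under the threshold of 0.05 over all genes), where 18.5% of all genes fell and 35.7% changed in either direction. Zscan4c had normalised values of 575 and 566 in the KD control libraries and 11.2 and 15.5 in the KD Zscan4 libraries. Its log2 fold change, on log2(value + 1), was -5.33 (adjusted p = 3.0e-09 by limma, SE 0.19). Both control libraries stood far above both knockdown libraries, as they did for each of the other 8 members. The targeted gene family is thus low in the libraries labelled as its knockdown.

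Zscan4f, a coding copy with the same 60-base stretch as Zscan4c, had 535 and 534 normalised reads in KD control and 12.2 and 13.6 in KD Zscan4. Zscan4d, the copy transcribed most strongly in the 2-cell embryo, had 476 and 408 in KD control and 11.2 and 24.3 in KD Zscan4. Its KD Zscan4 libraries lay further apart than its KD control libraries on the log scale. Zscan4a, annotated as a pseudogene, had 459 and 409 in KD control against 4.06 and 6.79 in KD Zscan4. Its log2 fold change of -6.11 (adjusted p = 1.1e-08 by limma, SE 0.25) was the first in rank by fall among 17938 genes. Zscan4-ps3 (-5.67), Zscan4c (-5.33), Zscan4f (-5.27), Zscan4-ps2 (-5.25) and Zscan4-ps1 (-5.18) stood at ranks 4, 5, 6, 7 and 9, and Zscan4d (-4.66) at rank 12.

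The 3 members named ps fell too. Zscan4-ps2 had 493 and 416 normalised reads in KD control and 11.2 and 10.7 in KD Zscan4. Zscan4-ps3 had 390 and 262 in KD control and 3.04 and 8.74 in KD Zscan4. Zscan4-ps1, the member with the lowest value in every group, had 130 and 119 in KD control and 3.04 and 1.94 in KD Zscan4, from 5 reads in all. For these members the size of the fall rests on few reads in the knockdown libraries.

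Zscan4b and Zscan4e, the pair with near-identical transcripts, had the smallest falls. Zscan4b had normalised values of 219 and 227 in KD control and 12.2 and 22.3 in KD Zscan4, a log2 fold change of -3.67 (adjusted p = 8.3e-07 by limma, SE 0.26). Zscan4e had 476 and 396 in KD control and 29.4 and 32.0 in KD Zscan4, a log2 fold change of -3.78 (adjusted p = 1.1e-08 by limma, SE 0.16). The 95% limma intervals, -4.24 to -3.11 for Zscan4b and -4.12 to -3.44 for Zscan4e, did not overlap those of Zscan4a, Zscan4c, Zscan4f, Zscan4-ps1, Zscan4-ps2 and Zscan4-ps3. They did overlap that of Zscan4d (-5.26 to -4.05). Intervals of single members were compared here and the difference between members was not itself tested.

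As a share of the KD control level in scaled reads, 7.81% of Zscan4b signal (95% exact interval 5.37 to 11.0%) and 6.98% of Zscan4e signal (5.31 to 9.04%) were left in KD Zscan4. For Zscan4d it was 4.01% (2.79 to 5.59%), and for Zscan4f, Zscan4-ps2 and Zscan4c it was 2.41%, 2.38% and 2.35% (1.54 to 3.43% for Zscan4c). For Zscan4-ps1, Zscan4-ps3 and Zscan4a it was 1.98%, 1.79% and 1.25% (0.621 to 2.25% for Zscan4a). The intervals cover counting error only. The intervals of Zscan4b and Zscan4e lay above those of all members other than Zscan4d. The target site of the shRNA is not given in the sources used here.

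**Figure D2:**
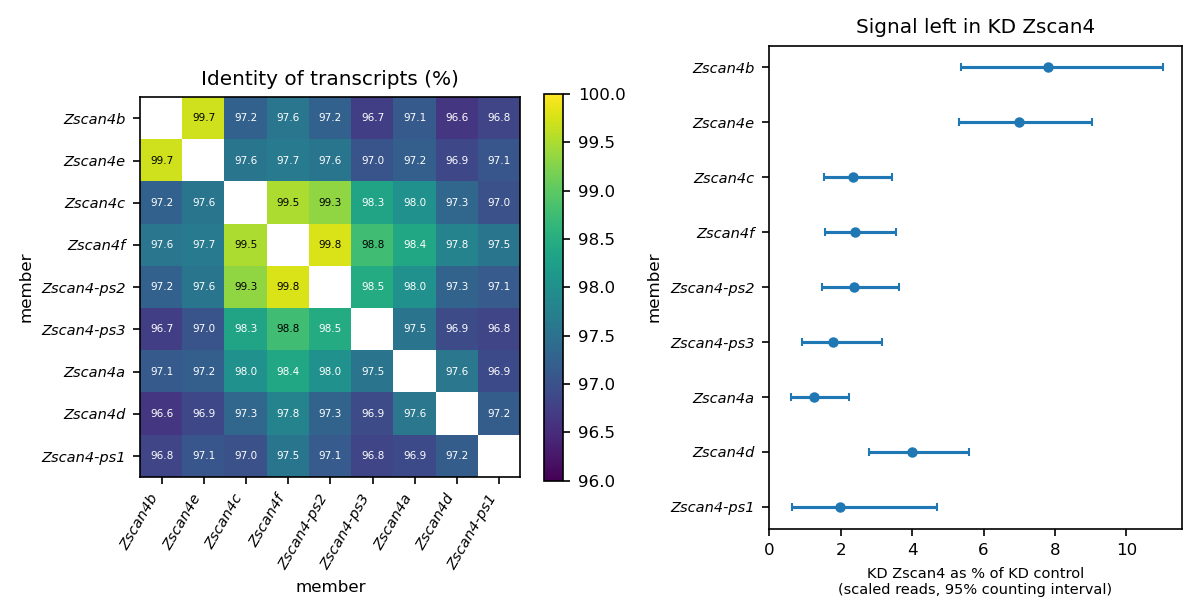
Left, percent identity of each pair of member transcripts. Right, signal left in KD Zscan4 as a percent of KD control for each member, with 95% exact counting intervals. Zscan4b and Zscan4e, 99.7% identical, keep 7.81% and 6.98%, and the other 7 members keep 1.25 to 4.01%.

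In the overexpression, all 9 members rose (limma), where 22.3% of all genes rose and 44.3% changed in either direction. Zscan4c had normalised values of 60.1 and 75.2 in the OE control libraries and 1074 and 981 in the OE Zscan4 libraries. Its log2 fold change was 3.91 (adjusted p = 6.3e-13 by limma, SE 0.13), and the ratio of the group means was 15.2. Both OE Zscan4 libraries stood far above both OE control libraries, as for each of the other 8 members. Reads from the introduced Zscan4c coding sequence and from the Zscan4c gene cannot be told apart in a gene table.

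Counts of members that the plasmid does not carry also rose. Plasmid reads could be counted for near-identical members such as Zscan4f and Zscan4-ps2 (99.5% and 99.3% identical to Zscan4c), since the counting of shared reads is unknown. How far this adds to their rise was not tested. Zscan4f had 53.4 and 67.0 normalised reads in OE control and 937 and 831 in OE Zscan4, a log2 fold change of 3.86 (adjusted p = 1.2e-12 by limma, SE 0.13). Zscan4d had 53.4 and 48.4 in OE control and 647 and 665 in OE Zscan4, a log2 fold change of 3.66, the smallest of the 9. Zscan4b had 18.1 and 15.5 in OE control and 308 and 227 in OE Zscan4, a log2 fold change of 3.91. The 95% limma interval of Zscan4d (3.39 to 3.94) overlapped that of Zscan4c (3.65 to 4.18). The plasmid holds the coding sequence only, and the share of unique windows within the coding sequences was not computed.

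Zscan4e, with 26.7 and 40.2 normalised reads in OE control and 568 and 485 in OE Zscan4, changed by 3.96 on the log2 scale. Zscan4a had 45.8 and 58.7 in OE control and 742 and 625 in OE Zscan4, a log2 fold change of 3.69. Zscan4-ps2 had 68.7 and 55.6 in OE control and 873 and 768 in OE Zscan4, a log2 fold change of 3.71. These 3 members, of which GENCODE or RefSeq calls each a pseudogene, rose about as far as the coding copies. Zscan4-ps1 rose from 11.4 and 8.24 to 173 and 195 normalised reads, a log2 fold change of 4.11.

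Zscan4-ps3, at the far end of the cluster, had the largest rise. It had 22.9 and 20.6 normalised reads in OE control and 556 and 533 in OE Zscan4, a log2 fold change of 4.59 (adjusted p = 1.5e-12 by limma, SE 0.16). The ratio of its group means was 25.0, against 12.9 to 18.7 for the other 8 members. Its 95% limma interval, 4.24 to 4.93, lay above those of Zscan4a, Zscan4c, Zscan4d, Zscan4f and Zscan4-ps2, and it overlapped those of Zscan4b, Zscan4e and Zscan4-ps1. The difference between members was not itself tested. Zscan4-ps3 held rank 3 by rise among 18292 genes, and the other members stood at ranks 8 (Zscan4-ps1) to 31 (Zscan4d).

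**Figure D3:**
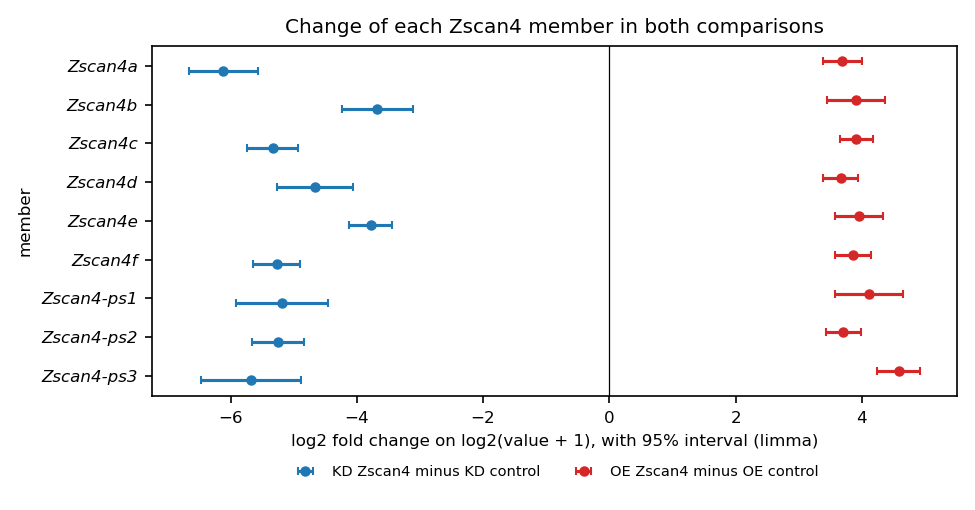
Log2 fold change of each member on log2(value + 1), with 95% limma intervals, in the knockdown (blue) and the overexpression (red). The falls span -6.11 to -3.67 and the rises 3.66 to 4.59.

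The opposite changes were set against each other in the 17409 genes of both tables. The overexpression effect minus the knockdown effect was 7.58 (Zscan4b) to 10.26 (Zscan4-ps3) on the log2 scale, and all 9 members passed the limma test of this difference in effects, where 22.9% of all genes passed as higher, 21.8% as lower and 44.7% in either direction. For Zscan4c the difference was 9.25 (adjusted p = 1.1e-13 by limma, SE 0.23). By this difference the members held places 1 to 7, 10 and 12 among the 17409 genes.

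Shares of the family sum do not depend on library scaling, so they can be compared across both tables. Zscan4c made up 15.3 and 16.97% of family reads in KD control, 16.7 and 19.3% in OE control, and 18.3 and 18.5% in OE Zscan4. The OE control and OE Zscan4 libraries overlapped, with means of 17.99 and 18.4% (exact permutation test, two-sided, n = 2 per group, p = 1.0). The share of the introduced member thus did not move beyond the spread between libraries while its level rose 15.2-fold. Plasmid reads counted for near-identical members would fall in the shares of those members. With 2 libraries against 2, the smallest p that this exact test can give is 0.333, so no difference in shares could pass 0.05.

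In KD Zscan4, Zscan4c made up 11.5% (Wilson 95% interval 6.52 to 19.4%) and 11.4% (7.16 to 17.8%) of family reads, below both KD control libraries. Zscan4b and Zscan4e together, grouped here by their sequence, made up 42.7% (33.3 to 52.7%) and 40.0% (32.3 to 48.3%) in KD Zscan4. In KD control they made up 18.5 and 18.7%, in OE control 12.4 and 14.3%, and in OE Zscan4 14.9 and 13.4%. The 2 KD Zscan4 libraries thus stood apart from all 6 others. Zscan4e alone took 30.2 and 23.6% in KD Zscan4 against 12.7 and 11.9% in KD control. Zscan4c, Zscan4f and Zscan4-ps2 together took 35.4 and 29.3% in KD Zscan4 against 42.7 and 45.4% in KD control and 48.6 to 50.8% in the 4 overexpression arm libraries.

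Zscan4a lost most of its share in the knockdown, from 12.2 and 12.3% in KD control to 4.17 and 5.00% in KD Zscan4. In the knockdown arm the libraries of both groups were separate for the share of each member other than Zscan4d, with the lowest exact p the design allows (0.333). In the overexpression arm they were separate for Zscan4a, which went from 12.7 and 15.1% to 12.6 and 11.8%, and for Zscan4-ps3. Libraries in random order would be separate for a given member at a rate of 0.333. Shares of a library are parts of the same sum, so the members do not separate independently of each other. Zscan4-ps3 made up 10.4 and 7.85% in KD control, 3.13 and 6.43% in KD Zscan4, 6.35 and 5.29% in OE control and 9.46 and 10.0% in OE Zscan4. It was the one member whose share separated the 4 libraries of high family level (7.85 to 10.4%) from the 4 of low level (3.13 to 6.43%). Every member was compared in this way. The low shares rest on 3 and 9 reads in KD Zscan4 and 24 and 20 in OE control. Their Wilson intervals reached up to 8.79 and 11.8% in KD Zscan4 and 9.27 and 8.03% in OE control. All of them covered 7.85%, the lowest share on the high side. No low library alone was thus set apart from that share beyond counting error. The split of the 8 libraries as a whole was not tested. The OE control intervals lay below both OE Zscan4 shares.

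The share profile as a whole was compared as the percent of family reads that would have to change member to make 2 libraries alike. It was 24.0 to 26.9% between KD control and KD Zscan4 libraries, and 6.84 to 8.55% between OE control and OE Zscan4 libraries. Within a group it was 3.01% (OE Zscan4), 4.48% (KD control), 10.3% (OE control) and 14.5% (KD Zscan4). The makeup of the family thus differed between KD control and KD Zscan4 by more than between replicates, and between OE control and OE Zscan4 by less than between the 2 OE control libraries. The KD Zscan4 libraries held 96 and 140 family reads.

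**Figure D4:**
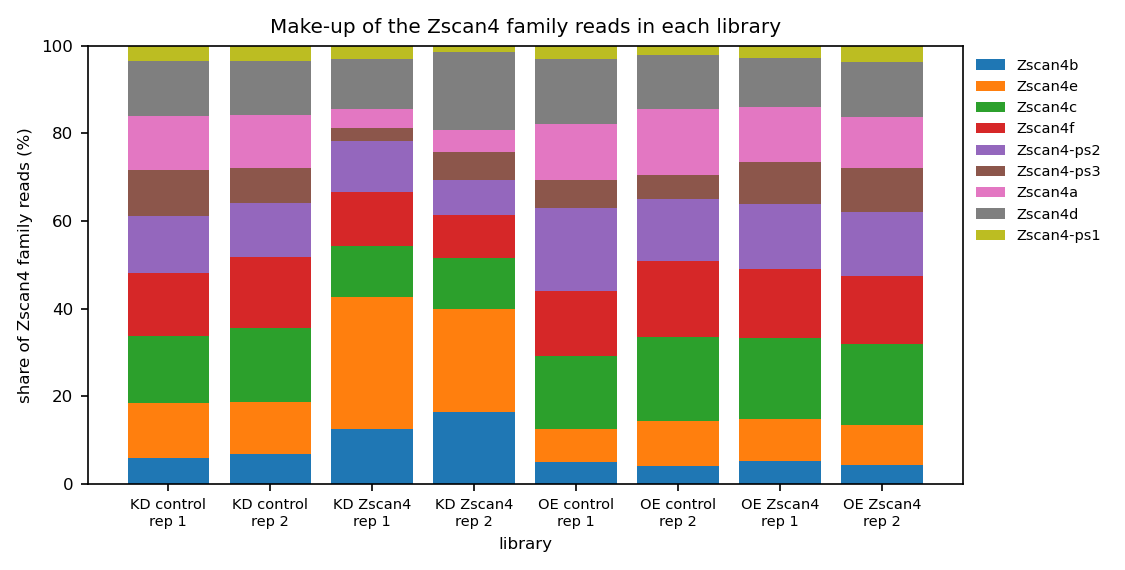
Stacked share (%) of each member in the Zscan4 family reads of each library, members ordered by sequence group. Zscan4b and Zscan4e at the base reach 42.7 and 40.0% in the KD Zscan4 libraries and stay at 12.4 to 18.7% in the other 6 libraries.

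Per kb of exon, Zscan4f and Zscan4c led the order of the members in 3 of the groups. In KD control the level of Zscan4f was highest, 273 ± 0.430 normalised reads per kb, followed by Zscan4c (251 ± 2.77) and Zscan4e (243 ± 31.2), of which the last pair overlapped. In OE Zscan4, Zscan4c (451 ± 28.9) and Zscan4f (451 ± 38.0) overlapped at the top, above Zscan4-ps2 (360 ± 32.4). In OE control, Zscan4f, Zscan4c, Zscan4-ps2, Zscan4a, Zscan4d and Zscan4e followed each other with overlapping neighbours (30.7 ± 4.89 to 18.6 ± 5.31). In KD Zscan4 the order began with Zscan4e (17.1 ± 1.03) and Zscan4b (9.57 ± 3.98). Zscan4b was the eighth of 9 in each of the other groups. Zscan4-ps1 was last in all 4 groups, from 1.24 ± 0.387 per kb in KD Zscan4 to 91.5 ± 7.76 in OE Zscan4 (SD, n = 2).

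Among genes measured in either arm, 5 others lay inside the cluster or within 1 Mb of its ends. Of these, 4 were measured in the knockdown and 5 in the overexpression. Annotated genes of this region that were measured in neither arm are not counted. Gm45551, a pseudogene inside the cluster at chr7:11478208-11479567, moved with the members. The KD control libraries held 34 reads of it and the KD Zscan4 libraries 8, a log2 fold change of -1.90 (adjusted p = 0.017 by limma, SE 0.55). That call was lost with DESeq2 (adjusted p = 0.097), without KD control replicate 1 (limma adjusted p = 0.13) and without KD Zscan4 replicate 1 (limma adjusted p = 0.065). In the overexpression arm it had 2 reads in OE control and 61 in OE Zscan4, a 30.7-fold ratio with a 95% counting interval of 8.15 to 259 (limma adjusted p = 4.2e-05). The neighbours outside the cluster did not pass in the knockdown or the overexpression. Zik1, a zinc finger gene, changed by 0.02 (SE 0.11) and 0.06 (SE 0.10) on the log2 scale in the knockdown and the overexpression, with 503 to 771 reads in a group. Zfp551 and Zfp606, also zinc finger genes, had adjusted p-values of 0.92 and 0.091 in the knockdown and 0.58 and 0.052 in the overexpression (limma). Zfp606 passed the test of the difference between both effects (0.77 on the log2 scale, SE 0.23, limma adjusted p = 0.013), from -0.39 (SE 0.17) in the knockdown and 0.38 (SE 0.15) in the overexpression.

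Of 46 listed genes of the 2-cell embryo outside the cluster, 32 were measured in the knockdown and 37 in the overexpression. In the knockdown 25 fell, none rose and 7 did not pass, where 18.5% of all genes fell. The median log2 fold change was -2.18 against 0.0078 over all genes. In the overexpression 32 rose, none fell and 5 did not pass, where 22.3% of all genes rose. The median was 2.73 against -0.0022 over all genes. Some listed genes had few reads outside the group where they were high, such as Duxf3 (27 reads in KD control, 1 in KD Zscan4) and Gm2056 (2 in OE control, 45 in OE Zscan4). Where such a gene was measured only through its high group, its direction was set by entry. The counts and medians of the list may lean that way. The Zscan4 members had medians of -5.25 and 3.91. Tcstv3, a gene of the 2-cell embryo, had 26.9 and 33.7 normalised reads in KD control and 2.03 and 2.91 in KD Zscan4, a log2 fold change of -3.18 (adjusted p = 0.00019 by limma, SE 0.45). Gm5662, another gene of the list, rose from 33.4 and 55.6 to 626 and 567 in the overexpression, a log2 fold change of 3.76 (limma adjusted p = 6.3e-11). Usp17ld, a deubiquitinase gene, went from 97 reads in KD control to 10 in the knockdown (log2 fold change -3.08, limma adjusted p = 6.8e-05).

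Duxf3, the Dux gene whose protein activates the cluster, was near the limit of detection, and its reads are uncertain because near-identical Dux copies can share them. The KD control libraries held 27 reads of it and the KD Zscan4 libraries 1, a ratio of 0.0369 with a 95% counting interval of 0.000901 to 0.224 (limma adjusted p = 0.0019). In the overexpression arm its normalised values were 0.954 and 7.21 in OE control and 9.57 and 5.64 in OE Zscan4, which overlap. Its log2 fold change there was 1.06 (SE 0.71) with a limma adjusted p of 0.24, and without OE control replicate 2 it was 2.10 with an adjusted p of 0.033. Members of the cluster rose by 3.66 to 4.59 in the same libraries.

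Of 31 measured regulators of the Zscan4 state, activators and repressors together, 15 fell and 5 rose in the knockdown, and 18 rose and 1 fell in the overexpression (Duxf3 is counted here too). Most genes of the list are repressors. So are most that fell in the knockdown and most that rose in the overexpression, Dnmt3b and Lin28a in both. The pooled counts thus do not separate activators from repressors. Of all genes, 18.5% fell and 17.2% rose in the knockdown, and 22.3% rose and 22.1% fell in the overexpression. Without KD Zscan4 replicate 1, 8 rose in the knockdown. Their median log2 fold changes were -0.18 and 0.29. Dppa2, an activator of Dux, had 3675 and 4053 normalised reads in KD control and 2342 and 2311 in KD Zscan4, a log2 fold change of -0.73 (adjusted p = 2.1e-06 by limma, SE 0.06). It had 997 and 990 in OE control and 3017 and 2815 in OE Zscan4, a log2 fold change of 1.55 (adjusted p = 2.6e-11 by limma, SE 0.07). Dppa2 was thus low and high in the same groups as the cluster within each arm. Its partner Dppa4 changed by -0.29 and 0.61 (SE 0.06 and 0.07) on the log2 scale (limma adjusted p = 0.0020 and 1.4e-06).

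Among the other regulators, the DNA methyltransferase Dnmt3b fell from 4547 and 4666 to 1823 and 1767 normalised reads in the knockdown (log2 fold change -1.36, limma adjusted p = 6.2e-09). Dnmt3a rose from 2401 and 2653 to 5512 and 5637 in the overexpression (log2 fold change 1.14, limma adjusted p = 1.0e-09). The RNA-binding protein gene Lin28a fell by 1.06 on the log2 scale in the knockdown, and the nuclear receptor gene Nr5a2 rose by 0.75. Smad7 and Rif1 rose by 0.99 and 0.95 in the overexpression. Trim28, the corepressor of many silenced loci, had log2 fold changes of -0.21 in the knockdown (limma adjusted p = 0.0076) and 0.80 in the overexpression (2.1e-07). Without KD control replicate 1 or KD control replicate 2, its knockdown value was -0.23 or -0.19 and did not pass (limma adjusted p = 0.097 and 0.20). Of the pluripotency factors, Pou5f1 had log2 fold changes of -0.13 (limma adjusted p = 0.078) and 0.53, and Nanog rose by 0.35 and 0.48. Without KD Zscan4 replicate 1 the Pou5f1 value of the knockdown was -0.19 and passed (limma adjusted p = 0.000523).

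Genes with a SCAN domain outside the cluster did not share its size of change. Of 31 measured, 6 fell and 2 rose in the knockdown, where 18.5% and 17.2% of all genes did. In the overexpression 8 rose and 6 fell, where 22.3% and 22.1% of all genes did. Their log2 fold changes lay between -0.70 and 0.76 in the knockdown and between -0.84 and 1.47 in the overexpression. Zscan10, an ES cell factor, changed by -0.32 and 0.51 on the log2 scale, with 1836 to 3502 normalised reads in a library. Zscan22 had the largest rise of the list, from 96.3 and 87.6 to 256 and 257 normalised reads in the overexpression (1.47, SE 0.14, limma adjusted p = 2.7e-07). Scand1 fell in both comparisons, by 0.54 and 0.74 on the log2 scale (limma adjusted p = 0.0025 and 1.1e-05). Without OE control replicate 2, OE Zscan4 replicate 1 or OE Zscan4 replicate 2, with DESeq2, or in 1 fit of all 8 libraries, 2 or 3 of the list fell in the overexpression in place of 6.

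**Figure D5:**
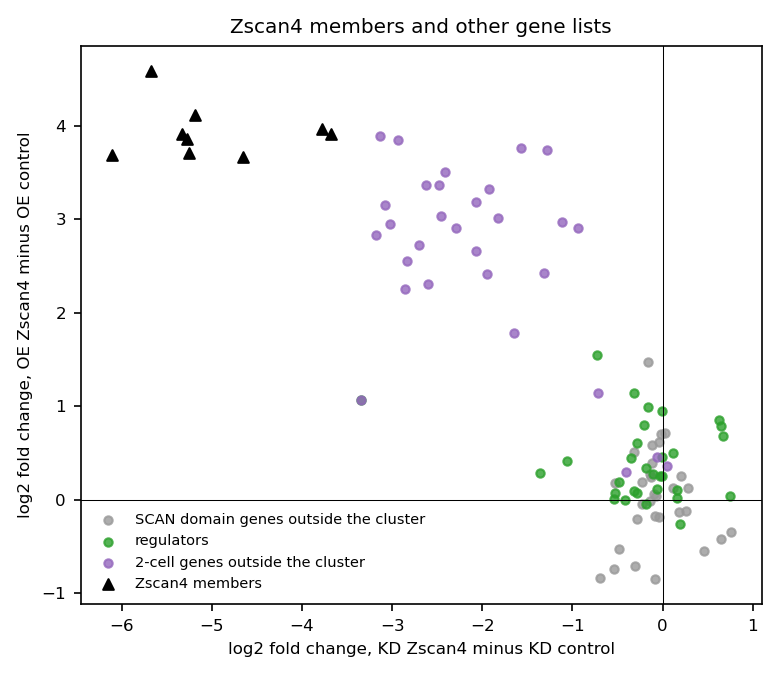
Log2 fold change in the knockdown (x) and the overexpression (y) for the 9 members, 2-cell genes outside the cluster, regulators, and other SCAN domain genes measured in both tables. The members lie at -6.11 to -3.67 on x and 3.66 to 4.59 on y, and the other SCAN domain genes lie between -0.70 and 0.76 on x.

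The genes with a pattern most like the family sum were found among 14736 genes with a mean of at least 20 normalised reads, over the 8 libraries. The measure was the root mean square difference in log2(value + 1), each gene and the family sum centred on the mean of its own arm. It was 0.156 to 0.469 for the members, which make up the sum, and 2.23 for the median gene. The 5 nearest genes were Gm21304 (0.645), Gm18983 (0.660), Gm20765 (0.668), Gm21312 (0.673) and Gm4340 (0.712). Gm4340, the most abundant of them, had normalised values of 422 and 316 in KD control, 40.6 and 54.4 in KD Zscan4, 32.4 and 29.9 in OE control, and 502 and 427 in OE Zscan4. Gm21304, Gm20765, Gm21312 and Gm4340 lie on chromosome 10 between positions 104168515 and 104196522. The log2 fold changes of the 5 were -3.43 to -2.93 in the knockdown and 3.06 to 3.89 in the overexpression, so their falls were smaller than those of all 9 members (-6.11 to -3.67). Gm4340 and Gm21304 are also on the list of 2-cell genes.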

How the data were processed

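RNA was measured by mRNA sequencing in 8 libraries, 2 in each of 4 groups taken from the sample titles, after 11 PCR cycles per the labels' protocols. The submitters' processing notes name cutadapt, HISAT2 with build mm10, featureCounts and DESeq2, with no versions. The authors deposited a table of signal values for each arm. Multiplied by 1 factor per library, 100% of these values came within 0.01 of a whole number, and these recovered reads gave shares and intervals. Libraries of a group differed by more than sampling noise (chi-square per degree of freedom 2.94 to 4.96). Each was counted as 1 sample, though this spread does not tell whether the libraries are independent.

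Each arm was tested with limma-trend (limma 3.58.1, R 4.3.3) on log2(value + 1) over all its genes, 2 against 2 libraries, two-sided, with Benjamini-Hochberg adjustment at 0.05 and no further filter on low values. The difference between the effects was a contrast over 17409 genes of both tables. Levels were never tested across tables. No p was computed for the family sum. Shares had Wilson 95% intervals and an exact permutation test. Levels per kb used exon lengths of GENCODE vM21. Transcripts were aligned with mafft 7.526. Before use, limma was run on simulated counts in which 200 genes had known changes. The check required only that most of these changes came out in the right direction, with the same spread set for every gene. It set no limit on false calls.

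The members, lists and tests were chosen with earlier results of these data known. Named were all 9 members, the 5 genes most like the family sum, up to 4 called genes of each list with the largest change in each comparison, genes inside the cluster, and Duxf3, Dppa2, Dppa4, Trim28, Zscan10, Pou5f1 and Nanog. Other neighbours of the cluster were named after their values were seen, since they are few. Not every gene the rule picks is described. Alternatives were other pseudocounts (0.5 and 5), a minimum mean of 10, TMM scaling, edgeR 4.0.16 and DESeq2 1.42.0 on recovered reads, 1 fit of all libraries, a replicate block, and leaving out each library. The repeat tables were not used here.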

Additional observations from a re-analysis of the deposited data

How the results depend on the processing

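All 9 members kept their direction and their call under every alternative run, with log2 fold changes of -6.42 to -3.26 in the knockdown and 3.51 to 4.66 in the overexpression, and limma, edgeR or DESeq2 adjusted p-values of at most 1.8e-06 and 3.5e-08. Counts over all genes moved more: with DESeq2 4141 genes were called in the knockdown against 6403 by limma, and the cause was not tested. Without single libraries 4416 to 6087 genes were called in the knockdown, 5964 to 7975 in the overexpression and 6619 to 7397 for the difference, against 6403, 8111 and 7787. Replicate numbers did not pair the libraries (correlation of same-numbered deviations -0.034 and -0.033), and with the number as a replicate block 6924, 8188 and 7388 genes were called.

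Without the 3 members named ps in the sum, the Zscan4c share was 21.6% in KD control, 13.7% in KD Zscan4, 24.0% in OE control and 25.4% in OE Zscan4, as fewer members make up the sum. Per kb of exon it was 14.97% in KD control, 10.1% in KD Zscan4 and 17.2% in OE Zscan4. The OE family ratio was 3.76 on the log2 scale in rpm, against 3.90 in deposited values. Among results for single genes and lists, 8 lost their call and 2 gained one under at least 1 alternative, and 3 list counts moved. Depth limits the KD Zscan4 shares, which rest on 96 and 140 family reads.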

Other observations

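Of 20 measured genes reported as partners or targets of Zscan4, 5 rose and 5 fell in the knockdown, where 17.2% and 18.5% of all genes did. In the overexpression 5 rose and 5 fell, where 22.3% and 22.1% of all genes did. The counts of the list were near these shares, with median log2 fold changes of -0.02 and 0.06. Gata6, a primitive endoderm factor, had 467 and 383 normalised reads in KD control and 25.4 and 16.5 in KD Zscan4, a log2 fold change of -4.30 (adjusted p = 4.7e-08 by limma, SE 0.21). In the overexpression it fell too, from 42.0 and 58.7 to 28.7 and 21.6 (log2 fold change -0.97, limma adjusted p = 0.011). That call was lost with DESeq2 (adjusted p = 0.083), without OE control replicate 2 (limma adjusted p = 0.12) and without OE Zscan4 replicate 2 (limma adjusted p = 0.080).

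Smc1b, a meiotic cohesin gene, rose in the knockdown from 14.3 and 11.2 to 52.8 and 52.4 normalised reads (log2 fold change 1.97, adjusted p = 0.00029 by limma, SE 0.29). It fell in the overexpression from 187 and 363 to 128 and 104 (log2 fold change -1.17, adjusted p = 0.00026 by limma, SE 0.21). Its changes thus ran against those of the Zscan4 members in both arms. Tet2, which encodes a 5-methylcytosine oxidase, ran with them: it fell by 0.56 on the log2 scale in the knockdown (limma adjusted p = 0.00019) and rose by 1.02 in the overexpression (limma adjusted p = 3.4e-06). Tbx3, reported as an activator of Zscan4, rose in both comparisons, by 0.64 and 0.78 on the log2 scale (limma adjusted p = 9.2e-06 and 2.7e-07). With DESeq2, 2 genes of the list fell in the overexpression in place of 5.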
